A study of Mus musculus with 12 samples.

Results

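Loss of the vitamin D receptor was examined here without added hormone, in 3 arrays of colon organoids from Vdr-knockout mice and 3 from wild-type mice, all given ethanol alone. These 6 arrays are those titled as controls of either genotype, out of 12 in all, and every measured gene was compared. Vdr itself lay 3.04-fold lower in the knockout, Tmprss12, a gene on the same chromosome, lay at least 4.28-fold higher, and S100g, the gene of an intestinal calcium-binding protein, lay 2.01-fold lower. No gene out of 21821 passed a test over all genes (limma, Benjamini-Hochberg adjusted p under 0.05), and Vdr passed it once same-numbered mice were paired.

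Organoids are isolated crypts kept in a gel as cultures rich in stem cells, so they hold epithelium without its surrounding tissue. Both genotypes were of the C57BL/6 strain, labelled wild type or VDR KO, with 1 mouse for each vehicle array. Replicates 1 and 3 came from mice of 2 months and replicate 2 from mice of 3 months in both genotypes. The sample descriptions give 62 h of treatment and the design text of the series gives 72 h, so the exposure to ethanol is uncertain between these. The other 6 arrays are cultures of the same mice given calcitriol, the active hormone, at 100 nM, and they serve here only as a second look at the same animals. The labels do not say how the receptor gene was disrupted.

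The vitamin D receptor is a nuclear receptor that binds DNA as a heterodimer with a retinoid X receptor. Bound to calcitriol it recruits coactivators and raises genes such as Cyp24a1, which encodes the enzyme that degrades the hormone, and Trpv6 and S100g, which carry calcium through the intestinal cell. Without hormone it can associate with corepressors such as NCoR, and in skin it has functions that do not need the hormone. Whether receptor loss alters the colon epithelium when no hormone is added is the question this comparison addresses.

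Signal was expressed as log2 of the processed spot intensity minus the 75th percentile of the array, and all levels and differences below are on that log2 scale, as knockout minus wild type. Wild-type arrays had more low-level signal than knockout arrays: the 10th percentile of intensity was 3.27, 10.5 and 6.80 on the wild-type arrays of replicates 1, 2 and 3, and 2.89, 3.00 and 3.11 on the knockout arrays. The share of spots well above background was 56.4%, 72.8% and 58.5% in wild type and 55.0%, 55.7% and 66.4% in knockout. Slides overlapped with genotype, since 1 slide held the knockout arrays of replicates 1 and 2, another the wild-type arrays of replicates 1 and 2, and only the largest held a vehicle array of each genotype (replicate 3). The Y-linked genes Ddx3y and Eif2s3y were above background on 4 of 4 arrays of replicate 2, labelled female, and on 0 of the other 8, which include the replicate labelled male, so the sex labels go against the data in both genotypes alike.

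Differences between the genotypes followed signal level. The tested genes were put into 4 tiers of equal size by mean level. In the dimmest tier (5456 genes) the median difference was -0.47, and it was -0.10, 0.03 and 0.07 in the tiers above. Groups that did not overlap, with all 3 knockout arrays below all 3 wild-type arrays, were found for 13.3% of the dimmest genes, 7.06%, 2.33% and then 0.605% of the brightest. The opposite pattern, all knockout arrays above, ran the other way, from 0.66% of the dimmest to 5.37% of the brightest. Each same-numbered pair of mice had a negative median among the dimmest genes, -0.28, -0.90 and -0.27 for replicates 1, 2 and 3, the last within 1 slide. On the calcitriol arrays of the same mice the dimmest genes had a median of -0.03 and the brightest 0.05. The raised low-level signal of the wild-type arrays moved with this pattern, and its part in the result was not tested. Each gene is therefore also given below against genes of like level, as its difference minus the median difference of its bin among 20 bins of equal size.

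**Figure D1:**
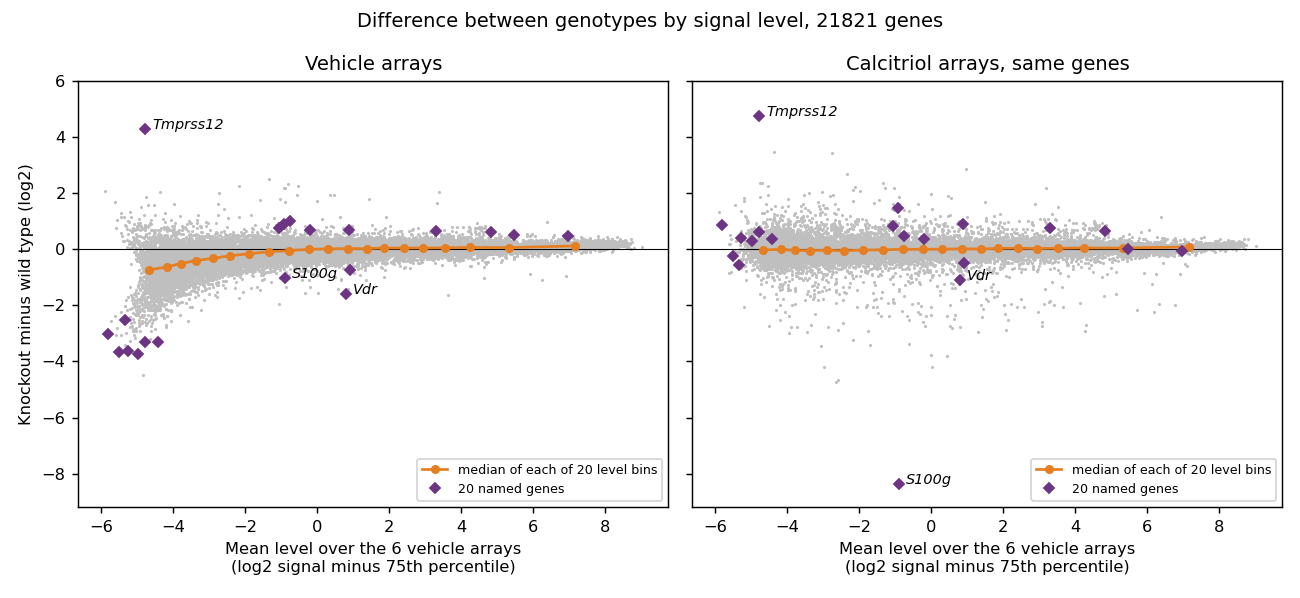
Each grey point is 1 of 21821 genes, with its mean level over the 6 vehicle arrays on the x axis (log2 signal minus the 75th percentile) and the difference knockout minus wild type (log2) on the y axis, on vehicle arrays at left and calcitriol arrays at right. Orange points are the medians of 20 level bins, which run from -0.74 to 0.12 in vehicle and stay near 0 in calcitriol, and purple diamonds are the 20 named genes.

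Over all genes, 817 had an unadjusted p under 0.05 in limma (3.74%), 140 of them higher in the knockout (0.642%) and 677 lower (3.1%), and 0 passed after adjustment. Groups did not overlap for 548 genes in the higher direction (2.51% of those tested) and for 1268 in the lower (5.81%). With the replicate number as a block, which pairs mice of 1 labelled sex and age, 1 gene passed (0.00458%). Groups were apart the same way on both the vehicle and the calcitriol arrays, which come from the same 6 mice, for 96 genes higher (0.44%) and 75 lower (0.344%).

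Vdr encodes the receptor and is the targeted gene. Its level was -0.35, 0.08 and 0.25 on the knockout arrays of replicates 1, 2 and 3 and 1.13, 1.66 and 2.01 on the wild-type arrays. The groups did not overlap, and the order of the replicates was the same in both genotypes, with replicate 1 lowest and replicate 3 highest. The difference was -1.60 (SE 0.26, n = 3 per group) or -1.63 against genes of like level, with a limma adjusted p of 0.994 and, with the replicate block, of 0.0208. Without either array of replicate 1 the blocked adjusted p was 0.0546 (wild-type array left out) or 0.167 (knockout array left out), and without any other array it was between 0.000209 and 0.0277. In a blocked fit, leaving out 1 array also takes its same-numbered partner out of the estimate, so both replicate 1 fits gave -1.67. Such fits rest on the remaining pairs, and their p depends strongly on the variance shared across genes. Within the largest slide the difference was -1.76, and with slide as a block over all 12 arrays it was -1.32 (SE 0.43, limma adjusted p 0.445). In calcitriol it was -1.11, again with the groups apart. The single Vdr probe stayed well above background on all knockout arrays. Whether that probe lies in the part of the gene that was disrupted is not known here, so it checks the labels only by the size of the difference.

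Tmprss12 encodes a membrane-bound serine protease known from the testis. Its level was -2.77, -3.03 and -2.13 in the knockout and -7.48, -6.44 and -6.87 in wild type. All 3 knockout arrays were well above background and 0 of the wild-type arrays were, so the groups were far apart and the wild-type level is only a bound. The bound is 2.10 on the log2 scale. The fitted difference, which rests on the wild-type values at background and is itself no bound, was 4.29 (SE 0.51), or 5.03 against genes of like level, and 1.52 with normexp background correction. The limma adjusted p was 0.31, and 0.265 with the replicate block. Under cyclic loess normalization it was 0.0249, and in a fit of all 12 arrays, which takes both arrays of a mouse as independent, it was 0.00943. In calcitriol the difference was 4.76 with the groups apart, and within the largest slide it was 4.74.

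Promoters of Vdr, Tmprss12 and S100g are shown because these are the genes on which the comparison turns. They are RefSeq sequences on build GRCm38.p6, 250 bases before to 50 after the gene start, on the strand of the gene, for Vdr chr15:97908247-97908546 (minus), for Tmprss12 chr15:100280587-100280886 (plus) and for S100g chrX:162964550-162964849 (minus). Capitals mark the receptor hexamers searched for on either strand, which are AGGTCA, the form AGTTCA, the form GGGTCA and the form GGTTCA.
Vdr: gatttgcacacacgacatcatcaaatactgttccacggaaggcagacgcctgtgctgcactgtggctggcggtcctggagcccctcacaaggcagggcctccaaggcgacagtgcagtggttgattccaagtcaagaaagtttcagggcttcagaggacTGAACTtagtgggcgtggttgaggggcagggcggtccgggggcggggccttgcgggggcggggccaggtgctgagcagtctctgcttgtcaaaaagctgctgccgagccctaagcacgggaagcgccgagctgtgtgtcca
Tmprss12: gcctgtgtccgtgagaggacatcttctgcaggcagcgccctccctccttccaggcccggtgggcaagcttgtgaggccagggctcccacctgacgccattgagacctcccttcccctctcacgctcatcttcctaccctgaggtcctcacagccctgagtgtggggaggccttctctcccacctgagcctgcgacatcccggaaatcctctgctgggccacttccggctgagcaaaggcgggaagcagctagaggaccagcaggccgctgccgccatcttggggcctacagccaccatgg
S100g: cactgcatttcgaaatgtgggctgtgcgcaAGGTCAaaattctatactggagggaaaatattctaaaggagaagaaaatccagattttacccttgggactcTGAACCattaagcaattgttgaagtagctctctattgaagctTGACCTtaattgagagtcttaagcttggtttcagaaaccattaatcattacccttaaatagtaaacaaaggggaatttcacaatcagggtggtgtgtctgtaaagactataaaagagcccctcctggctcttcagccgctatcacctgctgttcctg
Vdr had 1 match, Tmprss12 had 0 and S100g had 3, and in none did a pair of hexamers in the same direction stand 3 bases apart. At least 1 such hexamer was found in 43.7% of 32851 promoters of the same length, and such a pair in 0.0396%. A match describes letters in the window only.

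S100g encodes calbindin-D9k, which binds calcium inside the absorptive cell. Its level was -1.23, -1.60 and -1.40 in the knockout and -0.34, -0.71 and -0.15 in wild type. Every knockout array lay below every wild-type array, with a difference of -1.01 (SE 0.22, limma adjusted p 0.994) and of -0.96 against genes of like level. A second probe of the gene gave -0.93. With calcitriol the difference was -8.37, and the genotype effect differed between treatments by -7.37 (SE 0.17, mouse as block, limma adjusted p 1.22e-05), a test that 0.238% of all genes passed and, without the block, 0.0183%. The vehicle difference of S100g was therefore small beside the one seen with hormone, and did not pass the test over all genes.

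**Figure D2:**
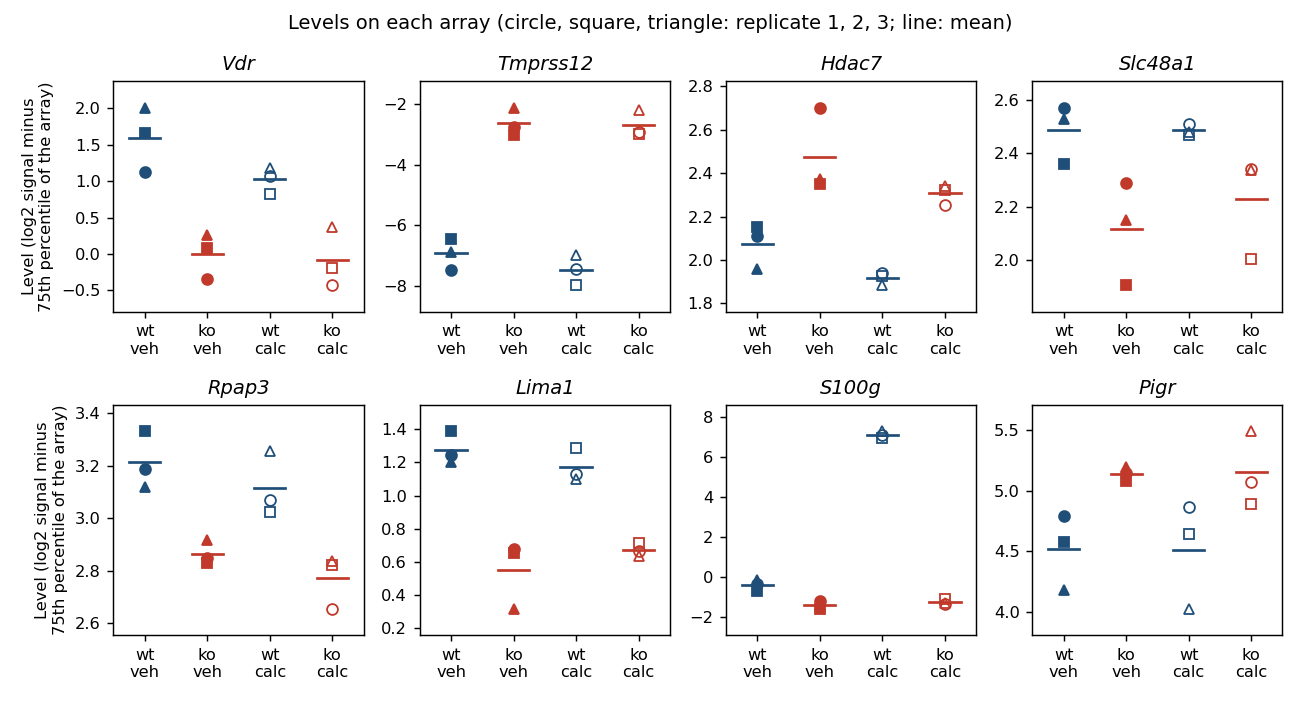
Levels (y axis, log2 signal minus the 75th percentile of the array, with its own scale for each gene) of 8 genes on each array, for wild type (blue) and knockout (red), vehicle (filled) and calcitriol (open), with circle, square and triangle for replicates 1, 2 and 3 and a line for the mean. In vehicle the 3 knockout arrays are apart from the 3 wild-type arrays for all 8 genes.

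Other genes of hormone handling and response gave smaller values. Cyp24a1 was below background on all knockout vehicle arrays and above it on 1 wild-type array, at -4.13 on replicate 3 against -7.48 and -6.47 on the others, so the gene that most directly reports hormone action had no measurable vehicle level in 5 of 6 cultures. Cyp27b1, which makes the hormone, was above background on 1 knockout and 0 wild-type arrays, and Slc30a10, a manganese transporter, on 2 of each. Trpv6, the apical calcium channel, was at -3.15, -2.01 and -3.47 in the knockout and -1.74, -1.996 and -3.17 in wild type, with overlapping groups and a difference of -0.58 (SE 0.50). Atp2b1, the calcium pump of the basal membrane, differed by -0.10 (SE 0.15).

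Of 21 tested members of a vitamin D response list, 7 were higher and 14 lower in the knockout, with 0 called and a median difference of -0.10 (-0.07 against genes of like level), beside a median of -0.03 and 9818 of 21821 genes higher over all genes tested. S100g was the one member whose groups did not overlap, beside 8.32% of all genes in either direction. Next by p were Cebpb, a transcription factor (0.27, SE 0.18), Spp1, osteopontin (-0.78, SE 0.52), and Cldn2, a pore-forming claudin (0.51, SE 0.36), all with overlapping groups. The 18 tested genes of calcium, phosphate and ion transport split evenly, 9 higher and 9 lower, with a median of 0.01. Among 7 tested hydroxylase and transport genes 3 were higher, with a median of -0.04. Cyp2r1, which hydroxylates vitamin D in the liver, differed by -0.43 (SE 0.40) and was lower in the knockout array of each same-numbered pair.

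Receptor partners showed no member that passed. Of 35 tested partners and coregulators 22 were higher and 13 lower, with a median of 0.06 (0.05 against genes of like level), and 2 had groups apart, both higher, beside 2.51% of all genes higher with groups apart. These were Tbl1xr1, a subunit of the NCoR complex, at 1.48, 1.14 and 1.45 in the knockout and 1.08, 1.02 and 1.09 in wild type, and Hdac3, its deacetylase, at 1.01, 0.92 and 1.38 against 0.81, 0.82 and 0.91. The corepressor Ncor1 itself differed by 0.12 (SE 0.19). Rxra differed by 0.06 (SE 0.41) and Rxrb by -0.05 (SE 0.15). Hr, the hairless corepressor that works with the receptor in skin, differed by -0.04 (SE 0.25).

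By the rule for named genes, the 10 genes with the smallest p in each direction are given as values that did not pass, among genes with a symbol whose groups did not overlap and whose higher group had signal well above background in every array. Behind Tmprss12, the higher genes were well above background on all 6 arrays and differed by 0.49 to 1.00. Pigr, the receptor that carries immunoglobulin A across the epithelium, was at 5.15, 5.08 and 5.20 in the knockout and 4.79, 4.58 and 4.19 in wild type. Its knockout arrays lay close together above all wild-type arrays, with a difference of 0.63 (SE 0.17), a second probe at 0.30, and 0.64 on the calcitriol arrays with the groups again apart. Vsig2, an immunoglobulin-domain membrane protein, was at -0.24, -0.28 and -0.28 against -0.89, -0.98 and -1.91, a difference of 1.00 (SE 0.29) that was 0.47 with overlapping groups in calcitriol.

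Zfp704, a zinc finger protein, differed by 0.92 (SE 0.28) in vehicle and 1.49 in calcitriol. Plet1, a membrane protein of progenitor cells, differed by 0.76 (SE 0.24) and 0.82, though its dimmer probe gave -0.36. Ermn, a cytoskeletal protein, differed by 0.67 (SE 0.21) with a dimmer probe at -0.04. Pnma2 differed by 0.71 (SE 0.23) and Afm, the vitamin E-binding protein afamin, by 0.70 (SE 0.20). Mcam, an adhesion molecule, was at 5.60, 5.66 and 5.94 against 5.20, 5.28 and 5.16, a difference of 0.52 (SE 0.14). Its dimmer probe, above background on 2 knockout and 2 wild-type arrays, gave -0.85. With calcitriol Mcam differed by 0.02 and Skint7, at 0.49 in vehicle (SE 0.16), by -0.06. Of the 10 higher genes, 9 kept their sign in calcitriol and 6 had groups apart the same way there (Tmprss12, Pigr, Zfp704, Ermn, Pnma2 and Plet1), against 3.6% of all genes on those arrays, with a median of 0.70 in both treatments. The 10 were chosen by groups apart in vehicle, in the same mice, so the nearer comparison is with genes so chosen. Of the 548 genes apart and higher in vehicle, 96 were apart the same way in calcitriol.

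The 10 lower genes were of another kind. Beside Vdr, S100g and Lima1, the remaining genes all had a mean level under -3, and 6 of the 10 were well above background on 0 knockout and 3 wild-type arrays, so they have only a bound. Of all 21821 tested genes, 22 had this pattern and 44 the reverse, above background on 3 knockout and 0 wild-type arrays. Fbxw26, an F-box protein, was at -7.73, -6.51 and -6.37 in the knockout and -3.40, -2.42 and -3.54 in wild type, at least 5.48-fold lower, and differed by 0.28 on the calcitriol arrays. Gm2030 was at least 3.73-fold lower, Olfr1033, an olfactory receptor, at least 4.34-fold, 4933402J07Rik at least 5.38-fold, Trim54, a muscle ring finger protein, at least 2.41-fold, and Npffr1, a neuropeptide receptor, at least 2.85-fold. A second probe, which did not pass the filter, gave only -0.33 for Gm2030 and -1.99 for 4933402J07Rik. Each of these was above background on 1 knockout and 1 wild-type array. Olfr828, above background on 1 knockout array, differed by -3.31 (SE 0.83). In calcitriol 5 of the 10 kept their sign and 3 had groups apart the same way (Vdr, S100g and Lima1), against 3.4% of all genes, with a median of 0.02. Of the 1268 genes apart and lower in vehicle, 75 were apart the same way in calcitriol. In vehicle the median of the 10 was -1.75 with the genes that have only a bound put at that bound. These dim genes lie in the range where the wild-type arrays carried more low-level signal, whose part in them was not tested.

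**Figure D3:**
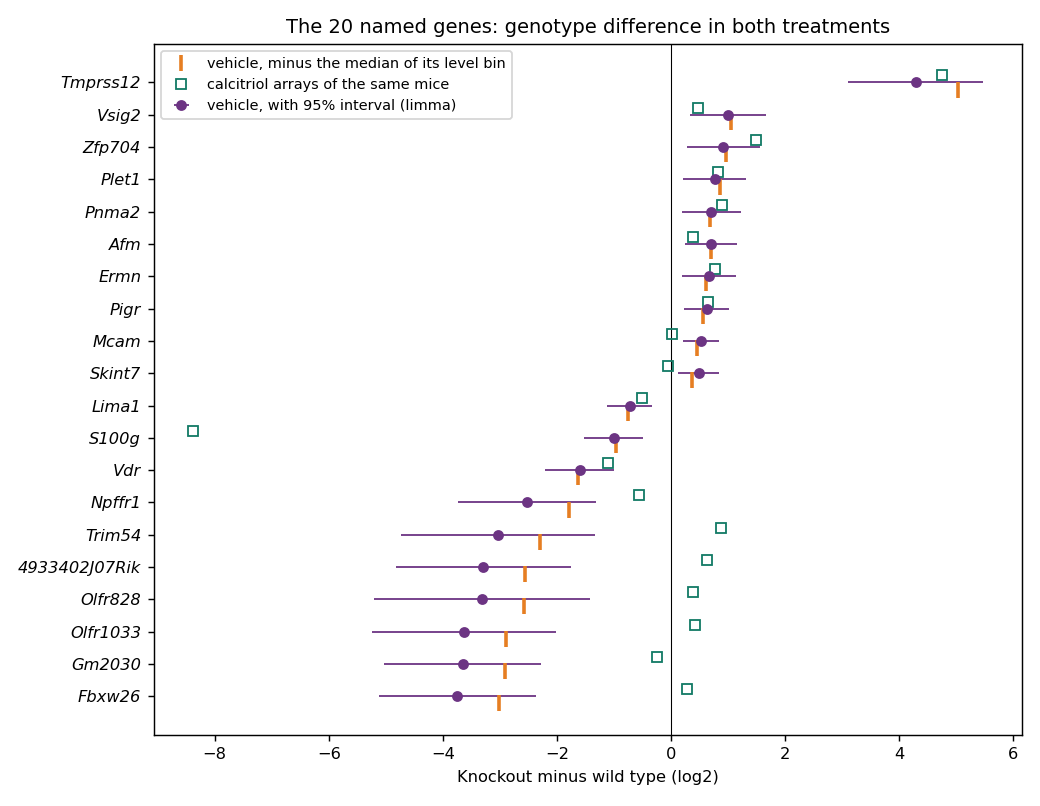
The difference knockout minus wild type (x axis, log2) of the 20 named genes, with circles and bars for the vehicle estimate and its 95% limma interval, orange ticks for the same minus the median of the level bin, and green squares for the calcitriol arrays of the same mice. The genes at the top keep their place in calcitriol more often than the dim genes at the bottom, where squares sit near or above 0.

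Genes beside Vdr on chromosome 15 were compared by gene order in the RefSeq table. Among the 20 tested neighbours, 10 on each side, 3 had groups apart in vehicle, against 8.32% of all genes in either direction, and the same 3 were apart the same way in calcitriol, against 0.784% of all genes apart the same way in both treatments. Hdac7, the next tested gene on one side and a class IIa histone deacetylase, was at 2.70, 2.35 and 2.38 in the knockout and 2.11, 2.15 and 1.96 in wild type, a difference of 0.40 (SE 0.16) in vehicle and 0.39 in calcitriol. Slc48a1, a haem transporter, was at 2.29, 1.91 and 2.15 against 2.57, 2.36 and 2.53, a difference of -0.37 (SE 0.16) and -0.26. Rpap3, a cochaperone subunit, was at 2.85, 2.83 and 2.92 against 3.19, 3.33 and 3.12, a difference of -0.35 (SE 0.13) and -0.34.

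On the other side of Vdr, Lima1, which encodes an actin-binding protein, stood 42 tested genes away and Tmprss12 stood 47 away. Lima1 was at 0.68, 0.65 and 0.32 in the knockout and 1.24, 1.39 and 1.20 in wild type, with no overlap, a difference of -0.73 (SE 0.17) and -0.50 in calcitriol. Methig1, 49 tested genes away and chosen after its values were seen, differed by 1.86 (SE 0.78) in vehicle, with overlapping groups. Against genes of like level the difference was 2.60, at a low mean level of -4.76. In calcitriol Methig1 differed by 2.35 with groups apart. Of 569 tested genes on the chromosome, 35 had groups apart in vehicle, beside the 8.32% of all genes, and 9 the same way in both treatments, beside the 0.784%. Neither these genes nor the neighbours passed the limma test over all genes.

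**Figure D4:**
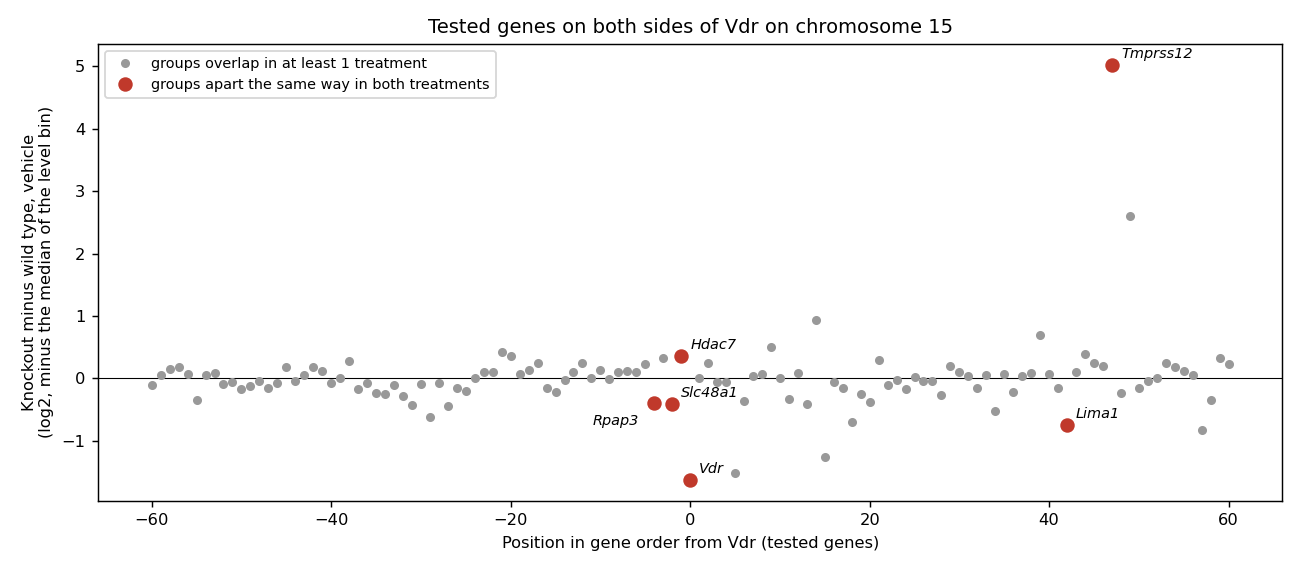
The difference knockout minus wild type in vehicle, minus the median of the level bin (y axis, log2), of tested genes up to 60 places from Vdr in gene order (x axis). Red points, whose groups were apart the same way in both treatments, are Vdr, Hdac7, Slc48a1, Rpap3, Lima1 and Tmprss12.

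Crypt stem cell and Wnt genes were close to the behaviour of all genes. Of 35 tested, 21 were higher, with a median of 0.07 (0.02 against genes of like level). Lgr5, the receptor that marks crypt base stem cells, was at 3.79, 3.56 and 4.12 in the knockout and 3.86, 3.32 and 3.44 in wild type, with overlapping groups and a difference of 0.28 (SE 0.20). Ascl2, a transcription factor of the same cells, differed by 0.09 (SE 0.27), Axin2, a Wnt feedback gene, by 0.06 (SE 0.32) and Myc by 0.10 (SE 0.22). Ephb3, a guidance receptor of the crypt base, was at 6.36, 6.48 and 6.38 against 6.08, 6.35 and 5.82, with the groups apart and a difference of 0.32 (SE 0.16).

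Replication and mitosis genes leaned one way by small amounts. Of 43 tested, 34 were higher in the knockout, with a median of 0.11, and 32 were higher against genes of like level, with a median of 0.07. The median was 0.30, 0.00 and 0.09 in the same-numbered pairs of replicates 1, 2 and 3, the pair of replicate 1 being highest. Cdk1, the mitotic kinase, differed by 0.39 (SE 0.23), Cenpe, a kinetochore motor, by 0.34 (SE 0.19) and Mki67, a proliferation marker, by 0.15 (SE 0.20), and 0 of the list were called. Cdkn1a, a cell cycle inhibitor that calcitriol can raise in many cells, differed by 0.02 (SE 0.29).

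Differentiated lineages varied in sign. Absorptive colonocyte genes had a median of 0.02, with 23 of 41 tested higher. Car1, a carbonic anhydrase, differed by -0.13 (SE 0.20), Slc26a3, the chloride exchanger, by -0.46 (SE 0.28) and Krt20, a keratin of mature cells, by 0.16 (SE 0.22). Clca4a was at 1.09, 2.08 and 2.45 in the knockout and 1.60, 1.21 and 1.05 in wild type, so replicate 1 went against the other pairs. Goblet and deep crypt secretory genes had a median of 0.05, with 21 of 35 higher, and Muc2, the gel-forming mucin, differed by -0.09 (SE 0.22) while Atoh1, the factor that sets secretory fate, differed by 0.02 (SE 0.24).

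Enteroendocrine genes had the highest list median against genes of like level, 0.41, with 17 of 24 tested higher as measured and 18 higher on that scale, though no member had groups apart and the median on the calcitriol arrays was 0.04. Chgb, a secretory granule protein, was at 4.38, 4.91 and 3.57 in the knockout and 3.83, 3.97 and 2.66 in wild type. Each knockout array exceeded its same-numbered wild-type array while the groups overlapped, and the difference was 0.80 (SE 0.42, limma adjusted p 0.265 with the replicate block). Chga was at 1.83, 2.42 and 0.41 against 1.33, 1.42 and 0.16, a difference of 0.58 (SE 0.52). Cplx2, which acts in vesicle release, went the other way, at 4.24, 4.29 and 4.78 against 4.69, 4.82 and 5.16, a difference of -0.45 (SE 0.19).

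Of the lists, the tuft cell genes moved most between the measured and the level-matched scale. As measured, 1 of 13 tested was higher, with a median of -0.53. The list's median level was -3.60. Against genes of like level the median was -0.20 with 3 higher. In calcitriol it was -0.07. Pou2f3, the transcription factor that tuft cells need, was at -6.74, -5.31 and -4.81 in the knockout and -4.81, -3.32 and -3.95 in wild type, with the groups meeting near -4.81 and a difference of -1.59 (SE 0.67) that became -0.85 against genes of like level. Dclk1, a kinase that marks tuft cells, differed by -1.72 (SE 0.81), or -0.98 against genes of like level. The median was -0.27, -1.05 and -0.11 in the pairs of replicates 1, 2 and 3. In bulk samples fewer cells of a type and less RNA per cell cannot be told apart.

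Stress and growth programmes lay slightly above 0 where their genes are bright. ER stress and amino acid response genes had 29 of 35 higher and a median of 0.13 (0.07 against genes of like level). Atf4, the transcription factor of the amino acid response, was at 7.15, 7.32 and 7.50 in the knockout and 6.76, 6.90 and 7.03 in wild type, with the groups apart, a difference of 0.43 (SE 0.14) and 0.22 with overlap in calcitriol. Hypoxia and glycolysis genes had 32 of 36 higher and a median of 0.16 (0.07 against genes of like level). Mitochondrial respiration genes had 27 of 33 higher as measured and 8 of 33 higher against genes of like level, so their direction turned with the scale. Housekeeping genes, 21 of 29 higher with a median of 0.12, had a median of 0.01 against genes of like level.

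Immediate early genes kept their lean on the level-matched scale, with 24 of 31 higher as measured, 25 against genes of like level, and medians of 0.13 and 0.11. On the calcitriol arrays the median was 0.23. Dusp1, a phosphatase of MAP kinases, was at 1.61, 1.60 and 1.91 in the knockout and 1.35, 1.25 and 0.79 in wild type, with the groups apart, a difference of 0.57 (SE 0.20) and 0.71 with groups apart in calcitriol. Egr1 differed by 0.33 (SE 0.17) with overlapping groups in vehicle and by 0.73 with groups apart in calcitriol, and Klf10 by 0.44 (SE 0.22). The pair of replicate 2 had a median of 0.00 against 0.13 and 0.27 in the pairs of replicates 1 and 3.

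Defence and interferon genes did not move together. Interferon and antigen presentation genes had 12 of 42 higher and a median of -0.09 (-0.05 against genes of like level), with Oas1a, an antiviral synthetase, at -0.36 (SE 0.17) and -0.50 in calcitriol. Among 31 epithelial defence genes 16 were higher. Duoxa2, which matures the hydrogen peroxide-producing oxidase DUOX2, was at -0.45, -0.42 and -0.29 in the knockout and -0.60, -1.31 and -1.54 in wild type, with the groups apart, a difference of 0.77 (SE 0.27) and 1.41 in calcitriol. Lyz1, a lysozyme, was at -0.26, -1.11 and -0.95 against 0.98, 0.50 and -0.53, a difference of -1.09 (SE 0.40). Adhesion and tight junction genes had 28 of 34 higher with a median of 0.11, and 21 higher with a median of 0.04 against genes of like level, and Tjp1, a junction scaffold, was at 3.76, 3.72 and 3.73 against 3.49, 3.55 and 3.51.

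In the lists of Notch, Hox and positional, NF-kB, bile acid, xenobiotic, Nrf2, sterol, fatty acid oxidation, p53, BMP and TGF-beta, and regenerative genes, medians ran from -0.09 to 0.14 as measured and from -0.02 to 0.13 against genes of like level, and 0 members were called. Aldh1b1, a mitochondrial aldehyde dehydrogenase, was at 3.66, 3.93 and 4.22 in the knockout and 3.43, 3.48 and 3.52 in wild type, a difference of 0.46 (SE 0.17) and 0.62 in calcitriol, with the groups apart in both. Hoxd10, a posterior patterning gene, was at -3.06, -3.68 and -4.39 against -2.38, -2.95 and -2.42, a difference of -1.13 (SE 0.41) that was -0.10 in calcitriol. Cdx2, the factor of intestinal identity, differed by 0.31 (SE 0.20). Adh6a, an alcohol dehydrogenase, was at 0.16, -0.87 and -0.70 against 1.05, 0.07 and 0.26, lower in each pair, with a difference of -0.93 (SE 0.35).

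**Figure D5:**
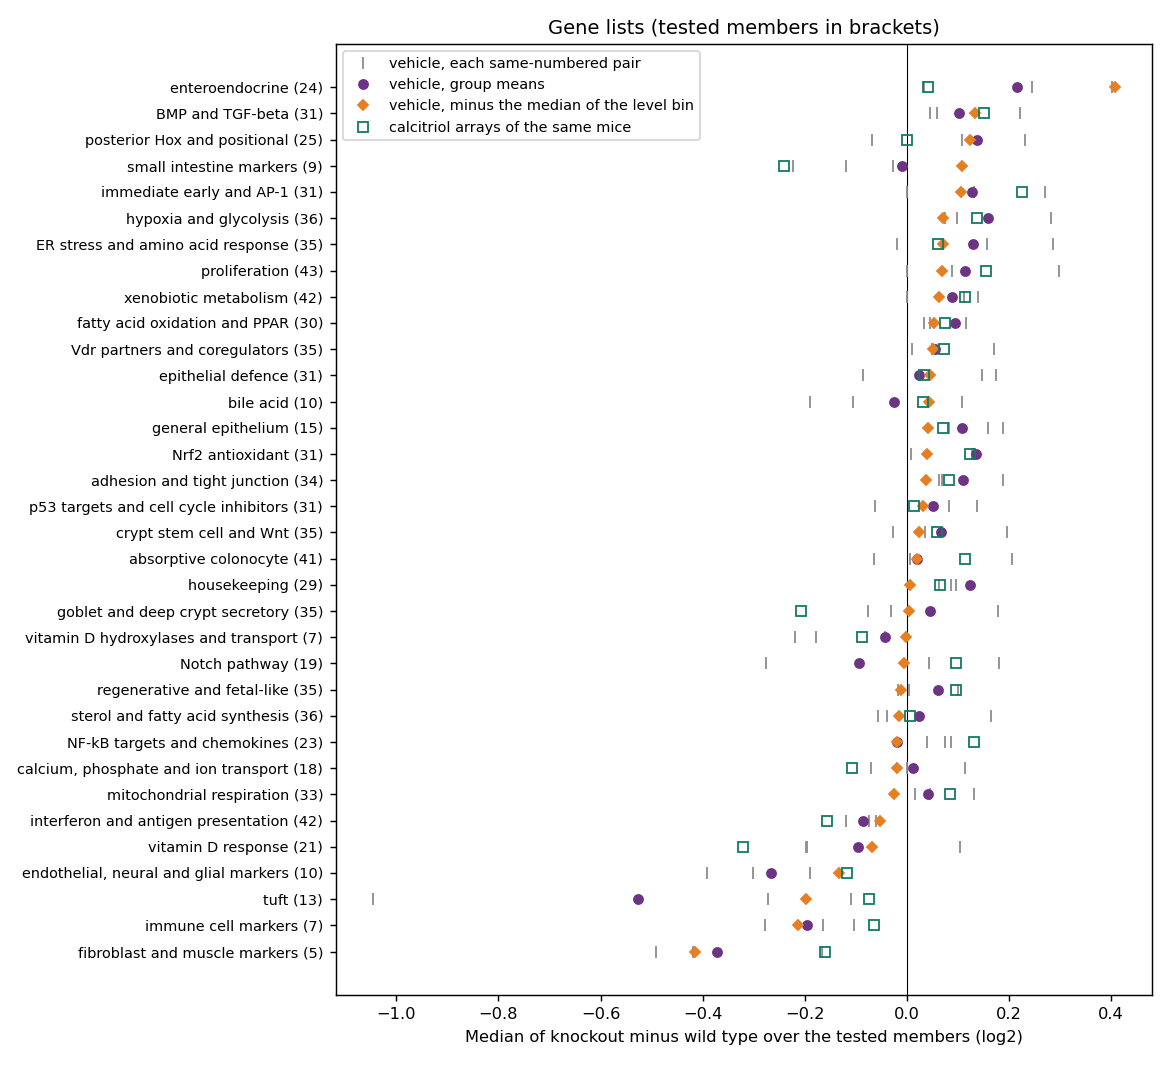
The median difference knockout minus wild type (x axis, log2) over the tested members of each of 34 lists, whose number is in brackets, as group means (circles), minus the level bin's median (diamonds), in each same-numbered pair (ticks) and on the calcitriol arrays (squares). Circles and diamonds lie between -0.53 and 0.41, and the tuft list is the one whose circle, at -0.53, moves farthest, to -0.20.

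Markers of epithelium and of other cells were checked against the labelled tissue. All 15 general epithelium genes were above background on all 6 arrays, and the log2 of their summed signal was 10.5 to 10.7 in the knockout and 10.5 to 10.8 in wild type. Of 15 small intestine markers 8 were above background on all 6 arrays, and Apoa1 and Gata4 on none. Their summed level was 3.91 to 4.47 in the knockout and 3.84 to 4.41 in wild type. Of 19 immune cell markers 7 were above background on all 6 arrays, and 5 on none, among them Cd79a, Cpa3, Jchain and Ms4a1, with a summed level of 3.84 to 4.10 in the knockout and 3.88 to 4.47 in wild type. Of 18 fibroblast and muscle markers 3 were above background on all 6 arrays, and Actg2, Dcn, Dpt, Lum and Pdgfra on none. Their summed level was 2.33 to 2.45 in the knockout and 2.78 to 2.91 in wild type, so these ranges did not overlap. Most of that summed signal came from 1 gene on every array, Fn1, which epithelium can also express. Fn1 was at 2.18, 2.17 and 1.80 against 2.70, 2.34 and 2.21, and differed by -0.36 in calcitriol. Of the 5 tested members of the list 2 were higher and 3 lower in the knockout. Groups were apart for 2 of the lower and 0 of the higher, beside 5.81% and 2.51% of all genes. The median of the 5 was -0.37 (-0.42 against genes of like level), which is the value of Fn1 itself. The list median was -0.49, -0.17 and -0.42 in the pairs of replicates 1, 2 and 3, and -0.16 in calcitriol. With most of its signal from Fn1, the sum does not describe the list as a whole. Of 18 endothelial, neural and glial markers 8 were above background on all 6 arrays and 4 on none, among them S100b, Tek and Uchl1, at 2.82 to 3.84 and 3.10 to 4.18. The part of these markers in the differences above was not tested.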

How the data were processed

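RNA of 12 organoid cultures was measured on 1-colour Agilent arrays, and the 6 vehicle arrays were compared. The deposited values, per the file headers, are linear intensities from Feature Extraction 11.5.1.1, with background subtracted, a spatial trend removed and low values set to a small positive floor, and with no scaling between arrays. The deposited flags for well above background and for outliers, which are not intensities, were also read. Of 55681 probes, 163 with an outlier flag were dropped. Levels are log2 of the intensity minus the array's 75th percentile, with spots of a probe averaged. A probe was kept if all 3 arrays of either vehicle group held it well above background (29591 probes), and the highest-mean probe stood for each of 21821 genes. Symbols (13873 genes) were looked up by accession in a RefSeq table (GRCm38.p6), used also for gene order, while the array annotation is on mm9.

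Tests used limma 3.58.1 in R 4.3.3, with a variance trend, on 1 array per mouse. Benjamini-Hochberg adjustment ran over all genes, with a threshold of 0.05. The number of arrays limits precision: for a single value, 3 against 3 cannot give an exact permutation p below 0.1. The replicate number marks mice of 1 labelled sex and age. Deviations of same-numbered vehicle arrays from their group means correlated at 0.65, 0.25 and 0.45, so blocked values are given where they change a call. On simulated data for this comparison, 50 genes were planted at each shift from 1 to 4. The fit found 48% of those shifted by 1 and 80% of those shifted by 2, and 10 of its 170 calls were false. With the block the rates were 70% and 96%, and 13 of 196 calls were false. The blocked run used separate simulated data with reduced noise and a shared replicate effect, so the 2 runs cannot be compared. Planted changes also ease the adjusted threshold, so these rates do not carry over to the real arrays.

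For a gene whose lower group had no array above background, the fold is a bound ("at least"). Its denominator averages, over that group's arrays, the gene's signal or the array's lowest detected signal, whichever is higher. Named genes were Vdr and Tmprss12, the 10 per direction with the smallest p among genes with a symbol, groups that did not overlap and a higher group well above background in every array, without Y-linked genes and Xist, up to 4 members of each of 34 lists, a fixed set, and the 10 tested neighbours on each side of Vdr. Of 1002 list genes 983 were on the array and 833 were tested. The members and lists were chosen with earlier results of these data known. Some values are not reported here.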

Additional observations from a re-analysis of the deposited data

Results flagged for a closer look

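For 7 named genes the genotype effect differed between calcitriol and vehicle (limma on 12 arrays with mouse as a block, adjusted p under 0.05), beside 52 of all genes (0.238%). The knockout-minus-wild-type difference was more negative in calcitriol by -7.37 for S100g (adjusted p 1.22e-05), -4.10 for Trpv6 (0.0476), -3.87 for Fgf15, an intestinal hormone (0.00394), -2.84 for Adh6a (0.000704), -2.003 for Atoh1 (0.00397), -1.76 for Atp2b1 (0.00394) and -1.21 for Adh1 (0.0302). Without the block, limma called S100g and Atp2b1, at adjusted p 4.34e-08 and 0.00757. In vehicle the same genes differed by 0.45 (Fgf15), 0.02 (Atoh1), -0.10 (Atp2b1), -0.38 (Adh1), -0.58 (Trpv6), -0.93 (Adh6a) and -1.01 (S100g), none of which passed the test.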

How the results depend on the processing

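Limma called 0 genes in the 6-array fit, 1 with cyclic loess, 1 on all 12 arrays (Tmprss12 in both), 1 with the replicate block (Vdr), 2 with the block and cyclic loess together (Vdr and Tmprss12), and 93 with scaling to the array median, 44 of them higher, under which the median of all genes moved from -0.03 to 0.73 so that signs there are relative to that shift. With 1 array left out, 0 genes were called without the block and up to 31 with it. Blocked fits of this kind lose the whole same-numbered pair from the estimate, so their calls rest on the remaining pairs. Tmprss12 passed the threshold at a difference of 5.20 (cyclic loess, with and without the block), 5.05 (median scaling), 4.29 (12 arrays) and 4.72 (blocked fits without either replicate 2 array, adjusted p 0.000816 and 0.0325), ranged over 4.01 to 4.72 with 1 array left out, and was 5.03 against genes of like level. It has no value when only probes above background on all 6 arrays are kept. With normexp background correction it was 1.52 and did not pass (limma adjusted p 0.208). Each of these Tmprss12 differences rests on wild-type values at background, so passing does not bear on its size. Vdr passed at -1.60 with the block and at -1.63 with the block and cyclic loess, ranged from -1.84 to -1.40 with 1 array left out, was -0.85 with median scaling (adjusted p 0.348) and was -1.11 in calcitriol. With all 6 arrays the block changed the call of no named gene but Vdr. With 1 array left out, blocked fits also called Lyz1 without either replicate 3 array (-1.42), and Chgb (0.74), Olfr828 (-3.94) and Adh6a (-0.92) without the knockout replicate 3 array.

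Groups did not overlap for 1816 genes (548 higher), for 4920 with median scaling (4707 higher), 7075 with no filter on dim probes, 2924 to 8000 with 1 array left out, 10721, 5312 and 5593 without both arrays of replicates 1, 2 and 3, where fewer arrays overlap less by construction, and 9871 without the wild-type arrays of replicates 2 and 3. The split was 796 higher of 1517 with quantile normalization, 689 of 1543 with cyclic loess and 805 of 1548 with normexp. The excess of lower genes was thus smaller with cyclic loess and absent with quantile normalization and with normexp. The difference between treatments was called for 7 named genes with the mouse block and for 2 with no replicate block. Leaving out each pair of replicates, both arrays of wild-type replicates 2 and 3, the block with cyclic loess, blocked fits with an array left out and the calcitriol values were chosen after seeing the data. Low-level signal limits the genes under a level of about -3, where wild-type arrays differ most.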

Other observations

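Other genes, outside the rule for named genes and with no place in the lists above, were chosen after their values were seen. They come from 104 genes with a symbol whose groups were apart the same way in both treatments. In these 104 the higher vehicle group was well above background on every array. Tnni1, a slow skeletal troponin, differed by -0.92 (SE 0.27) in vehicle and -1.27 in calcitriol. Penk, which encodes proenkephalin, differed by 1.58 (SE 0.53) and 2.35 at a low mean level of -4.71. Gcm1, a transcription factor known from the placenta, differed by 0.81 (SE 0.28) and 0.93, and Bex2 by 0.73 (SE 0.26) and 0.99. P2ry1, a receptor for ADP, differed by 0.54 (SE 0.20) and 0.62, and Tspan8, a tetraspanin of the gut epithelium, by 0.31 (SE 0.12) and 0.32. Gsdmc4, a gasdermin on the chromosome of Vdr, differed by -1.09 (SE 0.45) and -1.48. A transcript without a symbol, ENSMUST00000066583, was above background on 0 knockout and 3 wild-type arrays and lay at least 7.90-fold lower in vehicle (limma adjusted p 0.31), and it differed by 0.58 in calcitriol.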
